A study of Mus musculus with 6 samples.

Results

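Of the 1447 SP8 peaks placed on chromosomes 1 to 19 and X, 465 lay outside every protein-coding gene and more than 1 kb from the start or end of each. They are called distal peaks here. They were chosen by position alone, from the peak centre and the GRCm38 (mm10) gene boundaries, out of the whole list, in which a further 4 peaks on contigs were not placed. The list is named for replicate 1 of a chromatin immunoprecipitation followed by sequencing (ChIP-seq) of FLAG-tagged SP8. The chromatin came from forelimb ectoderm of mouse embryos at E10.5, homozygous for an Sp8-FLAG knock-in allele (labelled Sp8FL KI) on a C57BL6J background, with the tissue of 50 forelimb buds pooled per replicate. The series holds 6 libraries: 2 SP8-FLAG immunoprecipitations, 2 SP8-FLAG inputs, and 1 H3K4me2 immunoprecipitation and 1 input from wild-type embryos. No signal or peak list of the other libraries was read here. Whether an input or the second SP8-FLAG immunoprecipitation entered the peak call is not given in the sources used. The depth behind each peak is unknown, no peak has a replicate check, and a peak list carries no expression with which the tissue could be checked.

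SP8 is a zinc-finger protein of the SP and KLF family, whose members bind GC boxes and related CACC boxes in DNA. In the limb bud it acts in the ectoderm, where it is needed for the apical ectodermal ridge, the thickened rim that secretes FGF8 and other FGFs and keeps the limb growing out. Sites far from gene starts are where enhancers usually lie, and genes that pattern embryos often sit beside long stretches without other genes, called gene deserts. Such stretches also hold long noncoding RNA (lncRNA) genes, which have promoters of their own.

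The sequences come first, because they show what lies under the distal peaks that coincide with a promoter. Promoter windows of 300 bases, 250 before to 50 after an annotated start, were taken from RefSeq (GRCm38.p6). A distal peak overlapped such a window of a noncoding gene in 15 cases (3.23% of 465, 95% Wilson interval 1.96 to 5.25). Such windows held 0.134% of the bases that satisfy the same positional rule. The measures differ, since a peak counted if any part of it overlapped a window. The 16 windows belonged to 15 lncRNA genes, and they were 0.22% of the 7283 windows of noncoding genes that lie outside protein-coding genes. In 12 of the 15 the peak centre lay within 150 bp of the start. Below are the bases that 11 of these peaks share with the window, on the strand of the lncRNA, 5′ to 3′, read with the deposited start counted from 1. Capitals mark GC boxes (GGGCGG or CCGCCC) and CACC boxes (CACCC or GGGTG), searched on both strands, and matches may share bases. The first 7 hold a GC box, the next 3 hold only CACC boxes, and the last holds neither.
Crnde (peak 1228, chr8:92356071-92356370, minus strand): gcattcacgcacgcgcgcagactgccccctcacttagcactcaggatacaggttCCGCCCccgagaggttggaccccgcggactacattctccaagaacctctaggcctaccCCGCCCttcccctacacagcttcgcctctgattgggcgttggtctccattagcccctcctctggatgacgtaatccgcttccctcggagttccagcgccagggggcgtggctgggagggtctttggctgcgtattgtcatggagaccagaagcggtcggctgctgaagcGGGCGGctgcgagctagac
2810410L24Rik (peak 685, chr11:120189857-120190072, minus strand): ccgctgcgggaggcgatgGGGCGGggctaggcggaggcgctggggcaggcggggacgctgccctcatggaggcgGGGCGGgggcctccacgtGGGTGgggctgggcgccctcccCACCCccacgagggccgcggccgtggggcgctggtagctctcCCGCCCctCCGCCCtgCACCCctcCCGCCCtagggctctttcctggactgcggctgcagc
Gm9530 (peak 1253, chr1:155083215-155083514, minus strand): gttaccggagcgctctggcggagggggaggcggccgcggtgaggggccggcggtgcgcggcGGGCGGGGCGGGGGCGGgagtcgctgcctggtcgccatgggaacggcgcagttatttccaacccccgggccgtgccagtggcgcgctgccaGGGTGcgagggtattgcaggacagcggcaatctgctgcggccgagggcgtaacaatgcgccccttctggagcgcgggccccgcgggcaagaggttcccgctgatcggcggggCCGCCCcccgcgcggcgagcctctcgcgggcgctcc
Gm26901 (peak 517, chr1:7398142-7398346, minus strand): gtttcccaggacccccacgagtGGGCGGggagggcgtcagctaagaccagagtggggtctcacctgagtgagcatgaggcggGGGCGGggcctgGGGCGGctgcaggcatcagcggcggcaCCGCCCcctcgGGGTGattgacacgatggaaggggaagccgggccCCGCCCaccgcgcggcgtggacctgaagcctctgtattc
Gm33560 (peak 1417, chr7:141123127-141123280, plus strand): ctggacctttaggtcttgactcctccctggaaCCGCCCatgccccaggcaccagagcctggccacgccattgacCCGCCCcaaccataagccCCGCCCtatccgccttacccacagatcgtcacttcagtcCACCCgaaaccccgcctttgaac
Gm10046 (peak 462, chr7:27765576-27765722, plus strand): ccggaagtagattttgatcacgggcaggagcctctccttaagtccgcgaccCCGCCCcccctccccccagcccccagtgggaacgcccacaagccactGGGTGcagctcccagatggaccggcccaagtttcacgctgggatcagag
2810433D01Rik (peak 890, chr11:102624367-102624606, minus strand): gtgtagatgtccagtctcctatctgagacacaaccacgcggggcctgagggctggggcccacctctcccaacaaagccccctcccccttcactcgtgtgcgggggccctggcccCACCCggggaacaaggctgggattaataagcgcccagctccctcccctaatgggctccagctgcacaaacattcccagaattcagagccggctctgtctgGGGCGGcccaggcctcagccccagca
Platr26 (peak 271, chr2:71719167-71719389, plus strand): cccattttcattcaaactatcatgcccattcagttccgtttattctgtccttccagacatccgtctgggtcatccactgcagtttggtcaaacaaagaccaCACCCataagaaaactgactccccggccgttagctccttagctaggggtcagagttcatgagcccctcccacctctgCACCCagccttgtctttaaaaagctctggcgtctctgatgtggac
Gm31762 (peak 337, chr4:137142409-137142708, minus strand): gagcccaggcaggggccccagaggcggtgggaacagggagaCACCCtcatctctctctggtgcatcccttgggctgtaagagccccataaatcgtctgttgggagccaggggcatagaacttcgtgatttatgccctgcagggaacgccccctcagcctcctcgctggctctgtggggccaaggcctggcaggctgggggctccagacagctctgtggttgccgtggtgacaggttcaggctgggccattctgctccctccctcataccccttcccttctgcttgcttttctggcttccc
BC002059 (peak 1374, chr17:16951428-16951585, plus strand): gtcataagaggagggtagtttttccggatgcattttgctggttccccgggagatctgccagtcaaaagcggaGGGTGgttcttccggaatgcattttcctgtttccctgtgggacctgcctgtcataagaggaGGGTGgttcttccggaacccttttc
Arhgap20os (peak 867, chr9:51875836-51875964, minus strand): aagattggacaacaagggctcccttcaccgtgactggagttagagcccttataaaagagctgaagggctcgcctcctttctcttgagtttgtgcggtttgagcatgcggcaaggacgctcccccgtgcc

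A GC box was found in 12 of the 16 windows under distal peaks (Wilson interval 50.5 to 89.8%), against 9.24% of all noncoding windows outside protein-coding genes. Both windows of LOC108168800, under peak 1290, overlap and share a GC box, so the interval treats them as separate although they are not. In the bases under the peak alone, 10 of the 15 peaks had a GC box (66.7%, 41.7 to 84.8). A CACC box was found in 13 of the 16 (81.2%, 57.0 to 93.4), against 51.1%. The homeobox core TAATTA was found in 0 of the 16, against 8.22%. With 16 windows a share of up to 19.4% would still be within the Wilson interval, so a difference was not detectable. The windows under distal peaks were also richer in G and C, with a median of 57.2% (range 49.3 to 76.3) against 47.0%. They held 5 to 43 CpG dinucleotides, where the median of those noncoding windows was 3. Among windows with at least 50% G and C, a GC box was in 11 of 15 under distal peaks (73.3%, 48.0 to 89.1) and in 496 of 2365 outside protein-coding genes (21.0%, 19.4 to 22.7), a set that includes the 15. What part base composition has in the GC box counts beyond this was not tested. For comparison, 91.4% of the 371 protein-coding windows under SP8 peaks at gene boundaries held a GC box, and 46.7% of all protein-coding windows did. These sets also differed in composition, with a median of 68.3% G and C under boundary peaks and 56.7% over all protein-coding windows. The part of composition in this difference was not tested. A match is a string of letters in the window and not a measured binding site.

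**Figure D1:**
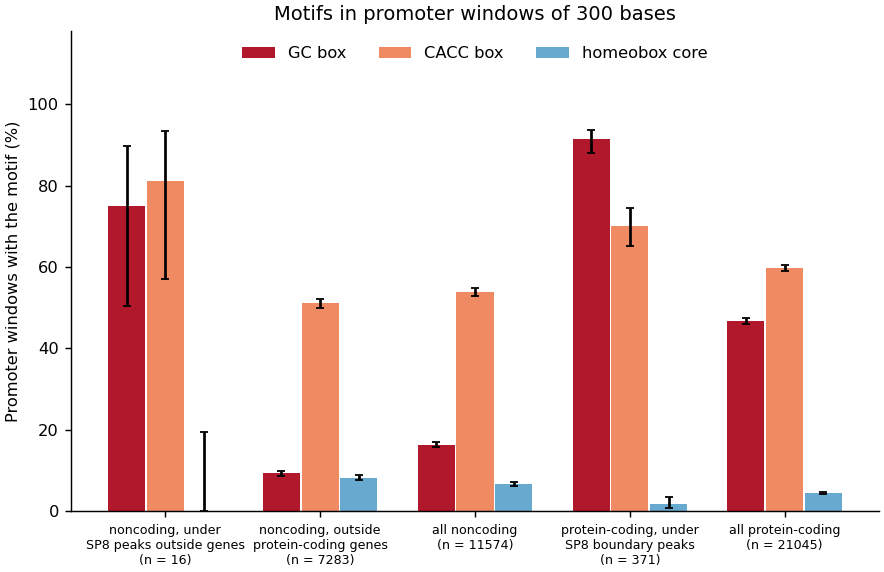
Share of promoter windows of 300 bases that hold a GC box, a CACC box or the homeobox core TAATTA, with 95% Wilson intervals as error bars, for 5 sets of windows. The 16 lncRNA windows under distal peaks show a GC box in 12, a share between the 9.24% of noncoding windows outside protein-coding genes and the 91.4% of protein-coding windows under boundary peaks, and the homeobox core is at 0 there.

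Crnde is a lncRNA gene beside the homeobox gene Irx5. Peak 1228 (chr8:92355727-92356463, 736 bp wide) was centred 25 bp after its start and 1.70 kb from Irx5. The sequence above carries 3 GC boxes. The window of Gm9530, under peak 1253 (chr1:155083192-155083515), was the richest in G and C at 76.3%, with 43 CpG dinucleotides. Its nearest protein-coding gene was Ier5, an immediate early response gene, 13.0 kb away. The promoter window of the lncRNA gene 2810433D01Rik overlapped peak 890 (chr11:102624358-102624606), 16.4 kb from Fzd2, which encodes a Wnt receptor. The promoter window of Platr26 overlapped peak 271 (chr2:71719159-71719389) in the gap between Dlx2 (172.5 kb) and Itga6 (67.6 kb). The start of Platr26 itself lay beyond the end of that peak. The promoter window of Gm31762 overlapped peak 337 (chr4:137142314-137142751), 93.7 kb from Zbtb40 and 135.1 kb upstream of Wnt4.

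The distal peaks made up 32.1% of placed peaks (Wilson interval 29.8 to 34.6), while 58.6% of the annotated chromosome length satisfied the same positional rule. That length was 1507 of 2571 Mb. These bases are called qualifying bases and serve below as the background for position. The other placed peaks were 528 at gene boundaries and 454 deep inside genes. Just inside the rule stood peak 1067, 1012 bp from Gprin1, and peak 561, 1051 bp from Meis2. Just outside it stood peak 607, 974 bp from Trim8, and peak 1021, 930 bp from Foxo3.

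Distal peaks lay nearer to protein-coding genes than qualifying bases did. Their median distance to the nearer gene boundary was 39.0 kb (95% interval of the median 32.3 to 50.6), against 87.4 kb over all qualifying bases. The quartiles were 10.4 and 132.2 kb for peaks and 21.7 and 287.9 kb for bases. Within 10 kb of a boundary lay 113 distal peaks (24.3%, 20.6 to 28.4) against 14.3% of qualifying bases. More than 100 kb away were 141 (30.3%, 26.3 to 34.6) against 47.3%, and more than 500 kb away were 18 (3.87%, 2.46 to 6.04) against 14.2%. None of these intervals holds the value of the bases.

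**Figure D2:**
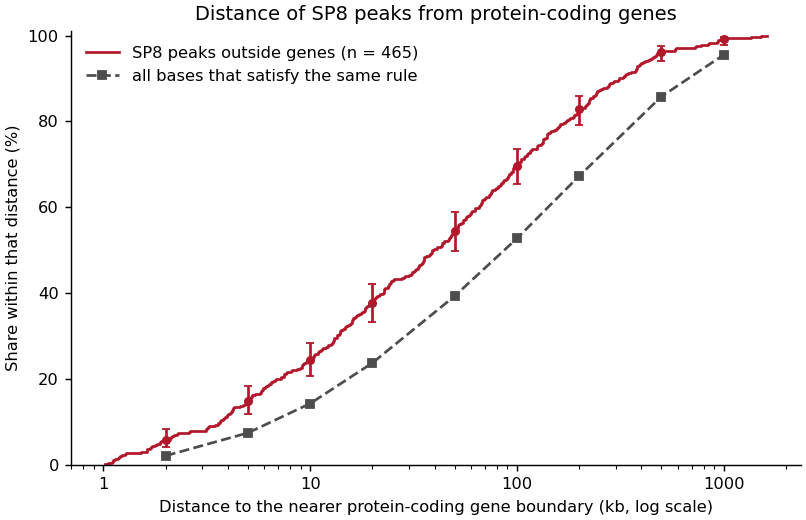
Cumulative share of the 465 distal peaks (line, with 95% Wilson intervals at 9 distances) and of all qualifying bases (dashed) against distance to the nearer protein-coding gene boundary, in kb on a log scale. The peaks lie above the bases at each distance marked, with medians of 39.0 and 87.4 kb.

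The side of the nearer gene could be told for 339 distal peaks, since RefSeq promoters gave a strand for 80.3% of protein-coding genes. Of these, 191 (56.3%, 51.0 to 61.5) lay upstream of the nearer gene, before its start, against 53.3% of qualifying bases. From 1 to 5 kb upstream the density was 0.727 peaks per Mb (95% Poisson interval 0.504 to 1.02, 34 peaks), and from 1 to 5 kb downstream it was 0.422 (0.250 to 0.667, 18 peaks). The intervals overlap. Beyond 100 kb the densities were 0.183 upstream (0.137 to 0.239) and 0.206 downstream (0.155 to 0.269). Gaps whose flanking genes point away from each other held 92 of 290 distal peaks with both strands known (31.7%, 26.6 to 37.3) and 26.1% of the bases. Gaps with genes in the same direction held 47.6% (41.9 to 53.3) and 53.6% of the bases, and gaps with genes that point toward each other held 20.7% (16.4 to 25.7) and 20.3%.

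Density was lower where the gap between the neighbouring protein-coding genes was longer. Gaps under 10 kb had 0.990 distal peaks per Mb of qualifying bases (Poisson interval 0.566 to 1.61, 16 peaks). Gaps of 100 to 250 kb had 0.372 (0.298 to 0.460, 86 peaks), and gaps of at least 1 Mb had 0.158 (0.124 to 0.197, 76 peaks). Gene deserts, taken as gaps of at least 500 kb, held 152 distal peaks, or 32.7% (28.6 to 37.1), and 49.1% of qualifying bases. Of the 639 such gaps 127 held a distal peak, or 19.9%, whereas 2.51% of all 16473 gaps with qualifying bases did. A longer gap has more bases in which a peak can lie, so these shares of gaps do not compare densities. Per Mb, the longer gaps held fewer peaks.

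**Figure D3:**
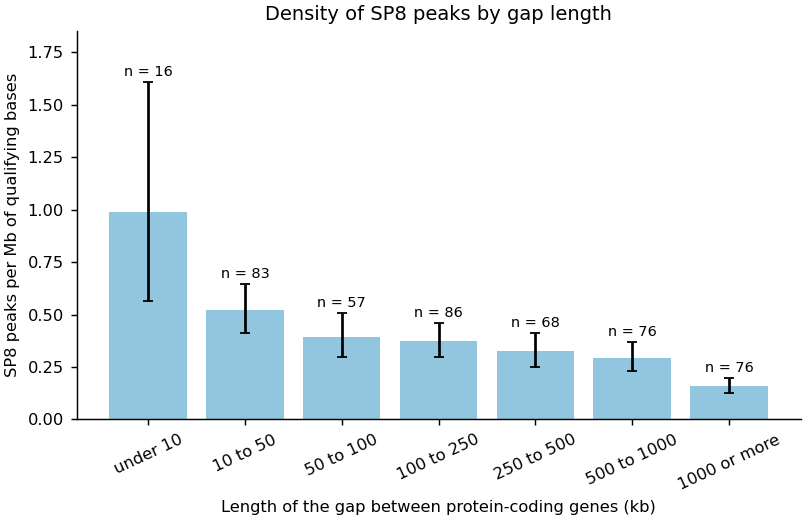
Distal peaks per Mb of qualifying bases in gaps of 7 length classes, with exact 95% Poisson intervals as error bars and the number of peaks above each bar. The density goes from 0.990 per Mb in gaps under 10 kb to 0.158 in gaps of at least 1000 kb.

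The 10 distal peaks farthest from a protein-coding gene stood 838.1 to 1629.5 kb away, distances that place them in gene deserts by definition. The farthest, peak 355 (chr2:47184384-47184842), was centred 1629.5 kb from Acvr2a, an activin receptor gene, and 2067 kb from Zeb2, a zinc-finger homeobox gene, with both genes pointing away from it. Peak 134 (chr5:79499185-79499702) was 1520 kb from Adgrl3 and 2091 kb from Igfbp7. Peak 1247 (chr7:94541919-94542448) lay in the lncRNA gene Gm32647, 1358 kb from Gm15501 and 1629 kb from Tenm4. Peak 1, which opens the list (chr12:42972649-42973211), lay in Gm33340 between Immp2l (1017 kb) and Dnajb9 (1233 kb), downstream of both. Peak 548 lay in the same gap, 838.1 kb from Immp2l. The others of the 10 farthest were peaks 140 (974.1 kb from Cntnap5a), 1379 (939.5 kb from Trim52), 537 (936.8 kb from Nxph1), and 157 and 780 (926.6 and 853.3 kb from Bcl11a). The longest gap with a distal peak, 3975 kb between Slc39a10 and Tmeff2, held peak 1002, 647.3 kb from Slc39a10.

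Most gaps with a distal peak held 1. Of 414 such gaps, 370 held 1, 41 held 2, 2 held 3 and 1 held 4, and a further 3 distal peaks lay before the first protein-coding gene of a chromosome. The gap with 4 was the 59.7 kb between Dsg2, which encodes a desmosomal cadherin, and Ttr, the gene of the transport protein transthyretin. Its peaks 1347, 1382, 456 and 1289 were 950, 330, 2039 and 778 bp wide, lay 15.9, 17.8, 20.6 and 23.9 kb from Dsg2 (chr18:20619911-20628777) and were all inside the lncRNA gene Gm16090. The 2213.5 kb desert between Bcl11a and Fancl held peaks 1038, 780 and 157, at 470.2, 853.3 and 926.6 kb from Bcl11a, which encodes a zinc-finger repressor. The 212.7 kb between Pfdn4 and Dok5 held peaks 154, 268 and 1360.

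Most distal peaks had no other listed peak within 10 kb, and no positional background was counted for this share. Within 10 kb of 25 distal peaks (5.38%, 3.67 to 7.82) there was another peak of the list, and for 18 of them (3.87%, 2.46 to 6.04) it was another distal peak. The share with a listed peak within 10 kb was 3.60% (2.32 to 5.55) for peaks at boundaries and 7.27% for peaks deep inside genes, whose interval overlaps that of the distal peaks. The 18 formed 7 pairs and the group of 4 at Dsg2. Peaks 804 and 348 lay between Dlx1 and Dlx2, a pair of distal-less homeobox genes, 2.14 kb from Dlx1 and 2.10 kb from Dlx2, and downstream of both. Peak 804 was inside the antisense gene Dlx1as. Peaks 11 and 407 (632 and 440 bp) were 1.77 and 5.94 kb upstream of Zfp503, a zinc-finger gene, and inside the lncRNA gene A330001L22Rik. Peaks 55 and 482 were 6.04 and 13.0 kb upstream of Bhlha9, a bHLH gene of the limb ridge. The pair 625 and 685 lay between Slc38a10 and Bahcc1. The other pairs were at Cyp1b1, between Vmn1r2 and Vmn1r3, and 232.2 and 238.1 kb from Samd9l.

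**Figure D4:**
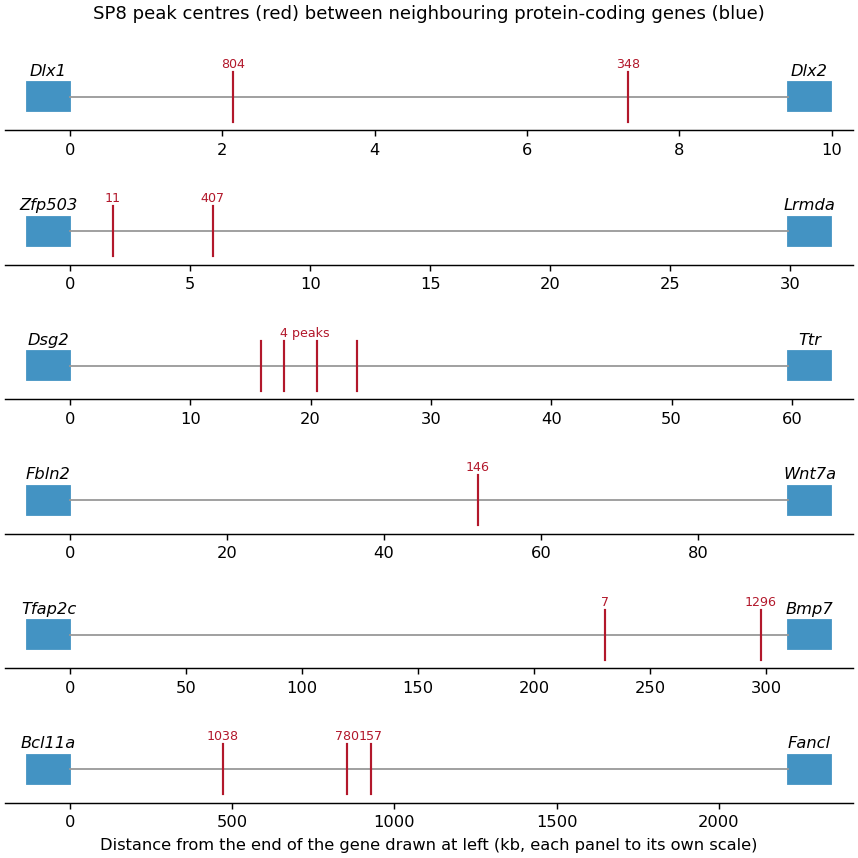
Positions of distal peak centres (red lines, with list numbers or, at Dsg2, their count) in 6 gaps between neighbouring protein-coding genes (blue blocks, not to scale in length), as distance in kb from the end of the gene at left. Each panel has its own scale, from the 9.43 kb between Dlx1 and Dlx2, with 2 peaks, to the 2213.5 kb between Bcl11a and Fancl, with 3.

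A centre lay inside a noncoding gene for 113 distal peaks (24.3%, 20.6 to 28.4), against 13.8% of qualifying bases. If bases in gaps of each length class had carried peaks at the density of that class, 66.4 peaks would have been inside. The hosts were 112 different genes, most of them with names of the Gm, LOC or Rik type. After a filter on those names, 10 distal peaks lay inside a noncoding gene (2.15%, 1.17 to 3.91), against 1.54% of qualifying bases, a share within the interval. The filter kept Gm1604a, the host of peak 837, since its name ends in a letter. For lncRNA genes alone the share was 21.9% (18.4 to 25.9) against 11.5% of bases, with 55.0 expected by gap length. An annotated lncRNA start was within 1 kb of the centre of 23 distal peaks (4.95%, 3.32 to 7.31), against 0.867% of qualifying bases and 4.62 expected by gap length. For pseudogenes the count was 4 (0.860%, 0.335 to 2.19) against 1.78% of bases. Besides Gm16090 and A330001L22Rik, Gm3134 held more than 1 distal peak, with peaks 1199 and 426 at 2.20 and 13.1 kb upstream of Sall1, a zinc-finger gene. Peak 754 (chr2:74752954-74753367) lay inside Haglr, a lncRNA gene of the HoxD cluster, 4.89 kb from Hoxd3 and 9.82 kb from Hoxd1. Haglr and Sall1 were singled out after their values were seen.

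Genes known from limb ectoderm often bordered a distal peak. A gene flanks a peak here if it is the nearest protein-coding gene on either side, which held for 3.74% of all 21523 protein-coding genes. Of 40 limb ectoderm genes, 17 (42.5%) flanked a distal peak. Within 100 kb 11 of the 40 did so, against 2.2% of all protein-coding genes. As the nearest gene of a distal peak stood 10 of the 40, against 1.98% of all protein-coding genes. The gaps beside list genes held 19 distal peaks, or 4.09% (2.63 to 6.29), and 0.720% of qualifying bases. At the densities of all gaps of the same lengths, 3.48 peaks would have been there, a ratio of 5.46 (Poisson interval 3.29 to 8.53). This list and the others below were drawn up with earlier results of these peaks known, so their counts and ratios are descriptions. The intervals treat peaks of the same gap as separate counts.

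By role, the transcription factor genes among the 17 were Sp8, Dlx1, Dlx2, Dlx6, Msx1, Msx2, En1, Tfap2a, Tfap2b and Tfap2c. Peak 265 (chr12:118836460-118836766) lay 9.68 kb upstream of Sp8 itself, in the 544.8 kb desert that ends at Sp4. Msx1, a homeobox gene induced by BMP, had peak 124 (chr5:37828585-37829076, 491 bp) 4.25 kb upstream, inside the lncRNA gene Gm33993. Msx2 had peak 1062 at 47.1 kb upstream. En1, which marks ventral limb ectoderm, had peak 1060 (chr1:120621817-120622105) 14.0 kb downstream, inside 2610027F03Rik. Tfap2a, which encodes the surface ectoderm factor AP-2 alpha, had peaks 1106 and 494 at 16.1 and 70.7 kb downstream. Dlx6 and Tfap2b were bordered only from afar, by peak 828 at 265.5 kb and peak 1324 at 743.0 kb, each nearer to another gene.

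The signalling genes among the 17 were Wnt4, Wnt7a, Wnt10a, Bmp4, Bmp7 and Jag2, and the last of the 17 was the adhesion gene Epcam. Wnt7a, the dorsal ectoderm signal, had the second widest distal peak, peak 146 (chr6:91323302-91325605, 2303 bp), 39.5 kb downstream and 51.9 kb from Fbln2 on the other side. Wnt10a had peak 143 (chr1:74808075-74808501) at 4.11 kb. Bmp7, a BMP ligand made in the ridge, had peaks 1296 and 7 at 11.8 and 78.7 kb, and the same gap is bordered by Tfap2c, 297.6 and 230.7 kb from them. Bmp4 had peak 598 at 271.4 kb, nearer to Cdkn3. Jag2, a Notch ligand of the ridge, had peak 122 (chr12:112885452-112885812) at 22.2 kb downstream, nearer to Gpr132 (17.2 kb). Epcam, an epithelial surface protein gene, had peak 39 (chr17:87532226-87532968, 742 bp) at 103.4 kb upstream, 85.7 kb from Calm2.

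Of 35 limb mesenchyme genes, 11 (31.4%) flanked a distal peak, and their gaps held 13 distal peaks where 4.41 would have been at the densities of those gap lengths, a ratio of 2.95 (1.57 to 5.04). The interval overlaps that of the ectoderm list. Lmx1b, the dorsal mesenchyme factor, had peak 9 (chr2:33641506-33643118, 1612 bp) 1.10 kb upstream and inside the lncRNA gene C130021I20Rik. Meis2 and Irx5, both homeobox genes, had peaks 561 and 1228 at 1.05 and 1.70 kb. Zfp503 had its pair of peaks within 6 kb. Sox9, the master gene of cartilage, had peaks 175 and 141 at 8.20 and 320.4 kb, the latter nearer to Slc39a11. Msc, Etv4, Ptch1, Alx4, Meis1 and Irx3 had a peak at 34.5, 13.0, 120.5, 124.3, 614.2 and 554.4 kb, and for the last 4 of these genes the gene on the other side was nearer.

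The other lists spanned a wide range, and they share genes and peaks with the limb lists, so their ratios are not separate results. Homeobox peaks at Dlx1, Dlx2, Dlx6, Msx1, Msx2, En1, Lmx1b, Meis1, Meis2, Alx4, Irx3 and Irx5 were already counted above. Peaks at Wnt4, Wnt7a, Wnt10a, Bmp4, Bmp7, Epcam, Jag2, Ptch1, Etv4 and Sp8 likewise count in a limb list as well. Of 87 homeobox genes outside the Hox clusters 25 (28.7%) flanked a distal peak, with 25 peaks where 9.69 would have been by gap length, a ratio of 2.58 (1.67 to 3.81). They included Barx2 (peak 123 at 5.79 kb), Nkx2-2 (peak 643 at 43.6 kb), Lhx1, Pbx3 and Six2. All 6 Irx genes were among them, on 5 peaks, of which 1422 was nearer to Adamts16 than to Irx1. Of 60 Wnt pathway genes 9 (15.0%) flanked a distal peak, with 10 peaks and a ratio of 2.79 (1.34 to 5.12). These were the ligand genes Wnt4, Wnt5a, Wnt7a and Wnt10a, the receptor genes Fzd1, Fzd2 and Fzd10, the agonist gene Rspo3, and Ctnnb1, which encodes beta-catenin and had peak 869 at 48.4 kb upstream. Of 52 epithelial adhesion and keratin genes 4 (7.69%) did, with 7 peaks and a ratio of 3.41 (1.37 to 7.03), of which the gap at Dsg2 alone held 4. The other 3 were Epcam, Pkp4 and Itga6.

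For the remaining lists the interval of the ratio included 1, which is a description, as no test was made on any list. The ratio was 3.34 (0.911 to 8.56) for 26 Notch pathway genes, with 4 flanking a distal peak, among them Hes1, a Notch target, with peak 1096 at 1.27 kb, and Dll1, a ligand gene, with peak 414 at 107.7 kb. It was 1.75 (0.800 to 3.32) for 55 BMP and TGF-beta pathway genes, with 8 flanking. Beyond Bmp4, Bmp7, Msx1 and Msx2 these were the ligand gene Tgfb2, the receptor gene Acvr2a, and the inhibitor genes Bambi and Smad7. It was 1.30 (0.157 to 4.69) for 17 hedgehog pathway genes, with Ptch1 and Boc, both receptor genes, flanking. It was 1.21 (0.250 to 3.54) for 26 SP and KLF genes, with Sp8, Sp4, Klf10 and Klf12 flanking. It was 0.581 (0.0704 to 2.10) for 36 FGF pathway genes. There only Spry2, a feedback inhibitor, and Etv4, a target gene, flanked a distal peak, and none of the listed ligand or receptor genes did. The distances to Spry2 and Etv4 were 474.7 and 13.0 kb, and the peak at Spry2 was nearer to Ndfip2 (108.0 kb).

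**Figure D5:**
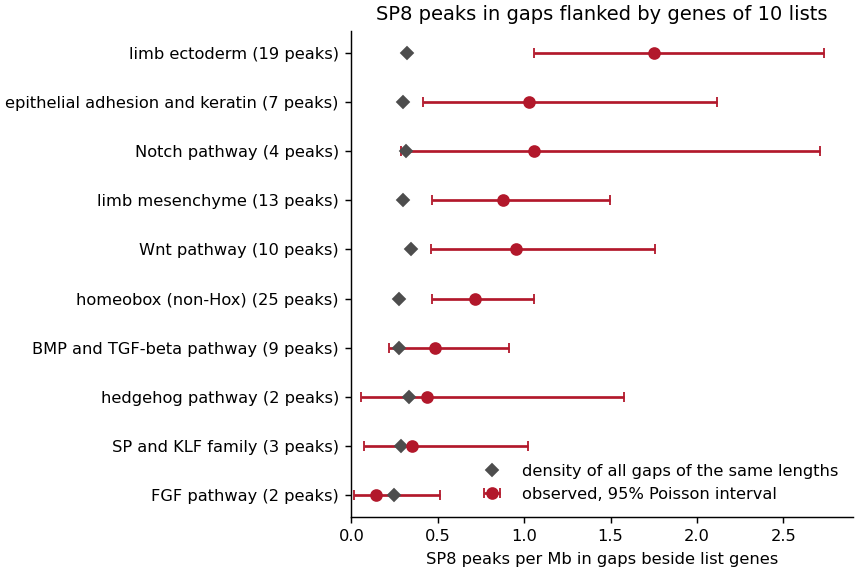
Distal peaks per Mb of qualifying bases in gaps beside the genes of 10 lists (points, with exact 95% Poisson intervals), and the density that all gaps of the same lengths have (diamonds). The limb ectoderm list has 19 peaks and a ratio of 5.46 between point and diamond, and the FGF pathway list has 2 peaks and a ratio of 0.581.

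The widths of distal peaks spanned 199 to 2569 bp. A width of 331 bp was the median (95% interval 317 to 343), against 344.5 bp (325 to 361) at boundaries and 336.5 bp (324 to 350) deep inside genes, and the intervals overlap. Wider than 1 kb were 8 distal peaks. The widest, peak 625 (chr11:120185763-120188332, 2569 bp), lay between Slc38a10 and Bahcc1 inside the noncoding genes 2810410L24Rik and Gm9734. The promoter of 2810410L24Rik, under the neighbouring peak 685, is printed above. After it and peak 146 came peak 456 at Dsg2, peak 9 at Lmx1b, peak 454 (chr1:7777117-7778522, 1405 bp) in the desert between Pcmtd1 and Sntg1, and peak 1387 (chr4:3175794-3177112, 1318 bp) between Vmn1r2 and Vmn1r3. Peak 1345 (1081 bp), 2.30 kb from the tight junction gene Cgn, followed, and then the last peak of the list (1076 bp), between Dynlt1a and Dynlt1b.

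Distal peaks came earlier in the list than the others, with a median list number of 625 (558 to 692) against 794.5 (727 to 861) at boundaries and 751 (676 to 813) inside genes. What the order stands for is not given in the sources used here. When the list was cut into 10 equal stretches, the distal share was 41.7% (33.9 to 49.8) in stretch 1, 18.6% (13.1 to 25.7) in stretch 8 and 37.2% (29.8 to 45.3) in stretch 10. Stretch 1 also had the highest median width of distal peaks, 473 bp, where the stretches after it had medians from 262 to 355 bp. The 10 distal peaks with the lowest numbers were 1, 6, 7, 9, 11, 16, 18, 20, 28 and 29. Of these, peak 6 (chr2:59403919-59404543) was 49.0 kb downstream of Pkp4, a plakophilin gene, inside Gm46743. Peak 16 was 19.3 kb from Zbtb8b, peak 18 was 3.87 kb from Dnajc28, and peak 20 was 35.5 kb from Slc22a15. Peak 28 was 3.68 kb upstream of Metrnl, and peak 29 was 21.0 kb upstream of Phb.

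By chromosome, the density over qualifying bases was 0.308 per Mb in all (Poisson interval 0.281 to 0.338). Chromosome 11 had 0.611 (0.430 to 0.842, 37 peaks) and chromosome 14, the lowest autosome, had 0.191 (0.105 to 0.321, 14 peaks). Chromosome X had 0.0581 (0.0233 to 0.120), with 7 distal peaks, which were 53.8% (29.1 to 76.8) of its 13 placed peaks. The highest distal share on an autosome was 47.9% (36.9 to 59.2) on chromosome 13 and the lowest, 8 of 42 peaks, was on chromosome 19 (9.98 to 33.3%). These are the extremes of 19 chromosomes, and no test was made.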

How the data were processed

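SP8 binding was measured by ChIP-seq. The deposited list gives a chromosome, a start, an end and a running number per peak, and no fold or score. Per the submitters' processing notes, GRCm38 and mm10 were the builds, and FastQC, SAMtools, TopHat2, deepTools and MACS2 were used, with no roles or versions given. The name of the list carries the marks q0.1 and fc3, which are not explained in the sources used here. Other settings of the caller, the control library, any pooling, and whether starts count from 0 or 1 are not given there.

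Genes came from RefSeq (GRCm38.p6), with 21523 protein-coding and 27691 other genes used of 49997. Genes not on chromosomes 1 to 19 or X, or starting before 3 Mb, were left out. Qualifying bases were counted exactly, from 3 Mb to the last annotated gene end. Strand came from the RefSeq promoter table. Intervals are 95% Wilson, exact Poisson or order-statistic intervals and cover counting error over peaks only. No test between conditions or classes was made, because 1 list has no replicates. The members and gene lists were chosen with earlier results of these data known. Named peaks are the 10 lowest in number, the 10 farthest, the 10 widest, those flanked by limb genes and those with a member within 10 kb. Named genes flank these or stand on a list. Peaks over promoter windows, those shown as sequence, the gap at Pfdn4, the longest gap and the small RNA genes were singled out after their values were seen. Expected numbers use the density of 7 classes of gap length. The scripts (Python 3.11.15, pandas 2.3.3, SciPy 1.17.1) were tested on simulated peaks, and all 300 planted outside genes were recovered. The planned base composition and motif search of the peaks themselves were not run, since no genome sequence was used here.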

Additional observations from a re-analysis of the deposited data

How the results depend on the processing

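Over 10 results and 34 alternatives, 28 of them planned and 6 added after the data were seen, 16 stayed within the interval, or within 1.5 times the count, of the value reported. The other 18 follow. The share of peaks outside genes was 47.0% with a margin of 0 bp, 27.4% with 5000 bp, 36.6% among list numbers up to 725, and 22.9% with all genes in place of protein-coding genes. The median distance was 11.5 kb with a margin of 0 bp and 56.6 kb with 5000 bp. The share in deserts was 16.3% for gaps of at least 1000 kb and 47.3% for gaps of at least 250 kb. The share inside a noncoding gene was 2.15% after the filter on Gm, LOC and Rik names and 28.6% with a margin of 1 kb. With a window of 50 kb, 16.3% had a listed peak nearby. The median width was 356 bp among list numbers up to 725. Of 380 genes on the lists 62 flanked a distal peak, 36 as its nearest gene and 35 within 100 kb. For limb ectoderm these counts were 17, 10 and 11, and for limb mesenchyme 11, 7 and 7. Wider or narrower definitions change these values by construction, and for the list numbers the cause was not tested. The unknown depth limits what the absence of a peak shows. Strand was unknown for the nearer gene of 126 distal peaks. Alternatives for base composition and motifs over whole peaks were not run. No paired analysis was possible because only the list named for replicate 1 was read. Leaving out a replicate could not be done either.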

Other observations

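Small RNA genes lay at 9 distal peaks within 1 kb of the centre (1.94%, Wilson interval 1.02 to 3.64), against 0.287% of qualifying bases. Of these, 5 were transfer RNA genes. The centre of peak 1280 (chr13:21161244-21161582) lay within n-TFgaa4, and n-TNgtt14, n-TNgtt13, n-TLtag1 and n-TMcat12 were 175, 223, 315 and 743 bp from peaks 854, 1185, 1297 and 1322. Peak 1433 (chr12:69361184-69361622) was centred in Rn7s2, a gene of the 7SL RNA of the signal recognition particle, between Nemf and Arf6. The other 3 were at the snoRNA genes Gm22347 and LOC115487541 and at Mir3085. The 6 peaks at transfer RNA and 7SL genes had list numbers from 854 to 1433.

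Of the 1005 microRNA hairpins of the RefSeq table, 10 lay within 10 kb of a distal peak, at 5 of the 465 distal peaks. The share of qualifying bases within 10 kb of a hairpin was not counted. Whether 5 is more than position alone would give can therefore not be told, and the peaks are listed as positions only. Peak 496 (chr19:42280175-42280722) was 278 bp from Mir3085, and peak 244 (chr8:84200656-84200967) was 7.71 kb from Mir23a and 7.86 kb from Mir27a, which sit together. Peak 765 was 7.29 kb from Mir9-1, and peaks 672 and 1120 were 9.19 and 6.65 kb from Mir7b and Mir3081.

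In the first 250 kb after the 3 Mb position from which bases were counted, 5 distal peaks were found (Wilson interval 0.460 to 2.49%), against 0.289% of qualifying bases. They were peaks 449, 1091, 1158, 1221 and 1387 on 3 chromosomes, with widths from 323 to 1318 bp and a median of 729 bp, more than the 331 bp of all distal peaks. Without the first 500 kb of each chromosome the distal share was 31.9% and the median width 330.5 bp. Mapping quality and repeats were not tested. Peak 1412 (chr6:68011792-68012123) lay inside Igk, the immunoglobulin kappa locus of 3171 kb, which the table counts among noncoding genes.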
